A study of Mus musculus with 20 samples.

Results

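The genes of the AP-1 transcription factor family were followed in sorted mouse keratinocytes: the Fos genes Fos, Fosb, Fosl1 and Fosl2, the Jun genes Jun, Junb and Jund, and Atf3, 8 of the 25719 genes in the count table, chosen by symbol. All 8 were among the 12424 genes that passed the filter on low counts. The cKO mice carried K14-CreERTam, a tamoxifen-activated Cre recombinase under the keratin 14 promoter, with floxed alleles of Cyp11b1 (Cyp11b1 L2/L2), which encodes the last enzyme of corticosterone synthesis; the control littermates carried the same floxed alleles without Cre. Every mouse received tamoxifen on 5 days, either on the skin (topical; 20 µl on the ear and 100 µl on the back, in ethanol, after dry shaving of the back) or by intraperitoneal injection (systemic; 100 µl of 10 mg/ml in oil and ethanol), and cells were taken on day 6. There were 4 groups of 5 mice: topical control, topical cKO, systemic control and systemic cKO, with 1 SmartSeq II library per mouse, from 2 M keratinocytes sorted from ear and back. The age of the mice is not given in the sources used here.

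AP-1 is a dimer of basic leucine zipper proteins that binds the sequence TGANTCA. Jun proteins can pair with each other or with Fos proteins, whereas Fos proteins need a Jun partner, and ATF3, a stress-induced member, pairs with Jun proteins as well. Fos, Fosb, Jun, Junb and Atf3 are immediate early genes whose transcripts rise within minutes of growth factor, stress or wounding signals and also during the enzymatic dissociation of tissue. In epidermis, AP-1 takes part in keratinocyte differentiation and in the response to injury, and the ligand-bound glucocorticoid receptor is known to hold back AP-1 activity. The levels given here include any response to the preparation of the cells, which cannot be told apart from the state of the skin.

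The libraries held 11.6 to 50.1 M counts. Cyp11b1 itself was barely read in any group, with 9 reads in topical control, 7 in topical cKO, 2 in systemic control and 4 in systemic cKO, so these counts do not check the deletion. Keratinocyte markers (7 genes) summed to between 89198 and 117878 CPM, which are counts scaled to the library total, and each of the marker lists of leukocytes, fibroblasts, melanocytes, endothelium and muscle to at most 35.0 CPM. The 5 systemic controls and systemic cKO 2 had more satellite-like transcripts (12 predicted genes) than the other 14 libraries. The level was 79.4 CPM in systemic control 1, 1937 to 37287 CPM in the rest of these 6 and at most 42.5 CPM elsewhere. The cut at 50 CPM used below falls in the narrow gap between topical cKO 5 (42.5 CPM) and systemic control 1. After injection this split runs with genotype except for systemic cKO 2, and in controls it runs with route, so that there it cannot be told apart from the groups. Below, levels are CPM with TMM factors, and called means an adjusted p below 0.05 in edgeR's quasi-likelihood test (Benjamini-Hochberg over 12424 genes).

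The start regions of 7 of the 8 genes were found in the RefSeq table (GRCm38.p6; 250 bases before to 50 after the start site). Those of Fos, Fosb, Fosl2 and Atf3 are shown because these are the members with an entry that were called in any comparison below. Capitals mark matches on either strand to TGACG, the core of the cyclic AMP response element through which CREB and ATF proteins act. Positions are counted from the start site, with the first transcribed base as 1.
Fos, chr12:85473640-85473939, plus strand: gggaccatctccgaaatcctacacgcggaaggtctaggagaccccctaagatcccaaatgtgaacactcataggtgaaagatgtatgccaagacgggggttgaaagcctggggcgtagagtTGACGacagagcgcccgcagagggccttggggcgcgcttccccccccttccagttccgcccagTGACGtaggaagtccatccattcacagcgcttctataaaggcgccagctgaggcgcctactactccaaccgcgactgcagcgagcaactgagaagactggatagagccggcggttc
Fosb, chr7:19309996-19310295, minus strand: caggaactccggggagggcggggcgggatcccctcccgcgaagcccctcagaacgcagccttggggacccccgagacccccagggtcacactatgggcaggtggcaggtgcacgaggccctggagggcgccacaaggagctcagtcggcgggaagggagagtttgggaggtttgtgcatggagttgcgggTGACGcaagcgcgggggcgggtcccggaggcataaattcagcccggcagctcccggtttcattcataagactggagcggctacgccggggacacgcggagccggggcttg
Atf3, chr1:191183284-191183583, minus strand: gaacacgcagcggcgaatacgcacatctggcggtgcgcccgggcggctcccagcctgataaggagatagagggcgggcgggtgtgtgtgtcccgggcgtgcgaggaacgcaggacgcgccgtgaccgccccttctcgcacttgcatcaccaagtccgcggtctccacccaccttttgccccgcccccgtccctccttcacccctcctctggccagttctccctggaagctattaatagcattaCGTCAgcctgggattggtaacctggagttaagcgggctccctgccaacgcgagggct
Fosl2, chr5:32136222-32136521, plus strand: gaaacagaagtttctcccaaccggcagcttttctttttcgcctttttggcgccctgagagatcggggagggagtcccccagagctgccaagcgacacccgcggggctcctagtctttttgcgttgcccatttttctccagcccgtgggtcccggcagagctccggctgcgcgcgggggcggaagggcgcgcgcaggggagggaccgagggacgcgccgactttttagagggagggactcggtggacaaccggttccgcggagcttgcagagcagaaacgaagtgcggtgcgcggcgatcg
The TGACG matches began at -129 and -66 in Fos, at -60 in Fosb and at -7 in Atf3, and Junb held a match at -106; the windows of Fosl2, Jun and Jund held none. Of 32851 start regions in the table, 20.8% held TGACG. None of the 7 windows held the full element TGACGTCA (in 1.79% of all windows, and it contains TGACG), the AP-1 site TGANTCA (7.81%) or the serum response factor site known as the CArG box (1.63%). Only exact matches to these patterns inside these short windows were searched. Sites farther from the start site or spelled otherwise would not be seen, so the genes may still hold such sites. Fosl1 had no entry. The window of Jund (chr8:70697489-70697788) ends before the start of the gene model used below (chr8:70698949). Its lack of matches therefore does not describe the start of that model. The Atf3 window lies inside its gene model, which begins at chr1:191218039 on the minus strand.

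All 8 genes are protein-coding in GENCODE M21 (GRCm38). The Fos genes are Fos (ENSMUSG00000021250, chr12:85473890-85477273, plus strand), Fosb (ENSMUSG00000003545, chr7:19302696-19310051, minus strand), Fosl1 (ENSMUSG00000024912) and Fosl2 (ENSMUSG00000029135, chr5:32135801-32157842, plus strand). The Jun genes are Jun (ENSMUSG00000052684, chr4:95049034-95052222, minus strand), Junb (ENSMUSG00000052837, chr8:84974484-84978718, minus strand) and Jund (ENSMUSG00000071076). Atf3 (ENSMUSG00000026628, chr1:191170296-191218039, minus strand) completes the set.

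Fos was the most abundant member, with a mean of 13267 ± 5184 CPM over the 20 libraries (SD), the 12th highest mean of all genes tested. Together the 8 genes took 1.90% to 4.16% of all counts in a library. Per kilobase of annotated exon, the levels were 5641 ± 2204 CPM for Fos, 3097 ± 1306 for Atf3, 1652 ± 461 for Jun, 1341 ± 545 for Junb, 91.9 ± 53.8 for Fosb, 72.9 ± 32.1 for Fosl1, 12.7 ± 4.90 for Jund and 2.85 ± 0.847 for Fosl2 (mean ± SD over 20 libraries). Jun and Junb, and likewise Fosb and Fosl1, lie within each other's spread in that order. The exon lengths are the union of all annotated transcripts, from 1.668 kb for Jund to 9.68 kb for Fosl2, and the transcripts in use may be shorter.

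Exons of 4 members overlap those of a gene on the opposite strand, and the SmartSeq II method does not keep strand. Fosl1 (chr19:5447547-5455946, plus strand) has 57.2% of its exon bases in common with Ccdc85b, and Jund (chr8:70698949-70700616, plus strand) has 52.6% in common with the antisense gene Gm11175. Ccdc85b had 0.911 to 1.28 counts for each Fosl1 count in the 20 libraries, and the log2 levels of both genes correlated at r = 0.98 across them, the highest r with Fosl1 of the 7820 genes compared. Reads of Fosl1 and Ccdc85b cannot be told apart in these counts, so each value for Fosl1 may hold reads of both. Gm11175 has no row in the count table, so sharing of reads with Jund could not be examined, and the level of Jund is uncertain. The overlaps of Jun with its antisense gene Junos (7.3% of exon bases) and of Junb with the peroxiredoxin gene Prdx2 (7.5%) are smaller, and reads from those stretches cannot be told apart either.

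**Figure D1:**
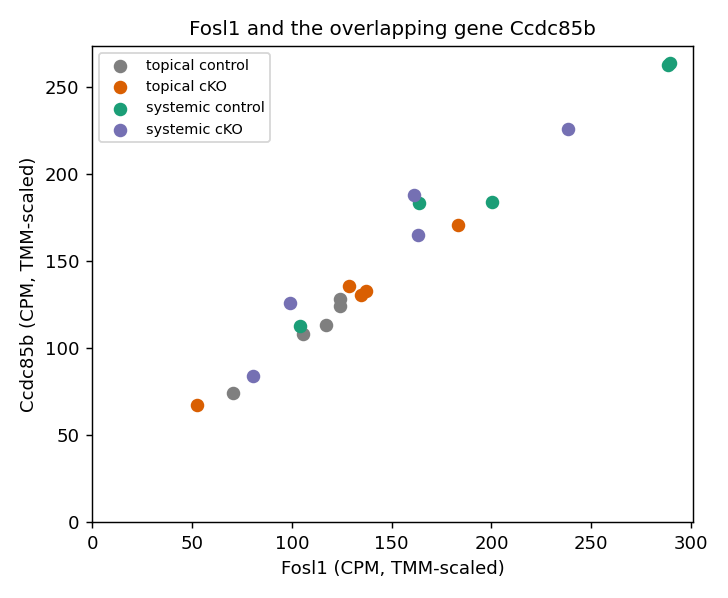
Level of Ccdc85b (vertical axis, CPM) against Fosl1 (horizontal axis, CPM) in each of the 20 libraries, coloured by group. The points lie close to a line in all 4 groups (r = 0.98 on the log2 scale).

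Whether deletion of Cyp11b1 induced on the skin changes AP-1 expression was asked first. None of the 8 members was called between topical cKO and topical control, where 0.129% of all genes were called, all of them higher. No member's groups were free of overlap (1.4% of all genes were), and none had an unadjusted p under 0.05; the DESeq2 and limma voom tests also called none. Estimates ran from a log2 fold change of -0.23 for Fos to 0.42 for Jund, with a median of 0.081 against 0.020 over all genes tested. Fos, the founding member of the family, was at 9211, 12867, 8108, 9467 and 10898 CPM in topical controls 1, 3, 5, 6 and 7, and at 7656, 5762, 11834, 6205 and 11738 CPM in topical cKO 2, 3, 4, 5 and 7. The lowest Fos values were in cKO libraries, but the groups overlapped. Its 95% interval, -0.79 to 0.34, leaves room for a fall of up to 0.79 on the log2 scale, and that of Jun, the main partner of Fos, ran from -0.46 to 0.70.

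**Figure D2:**
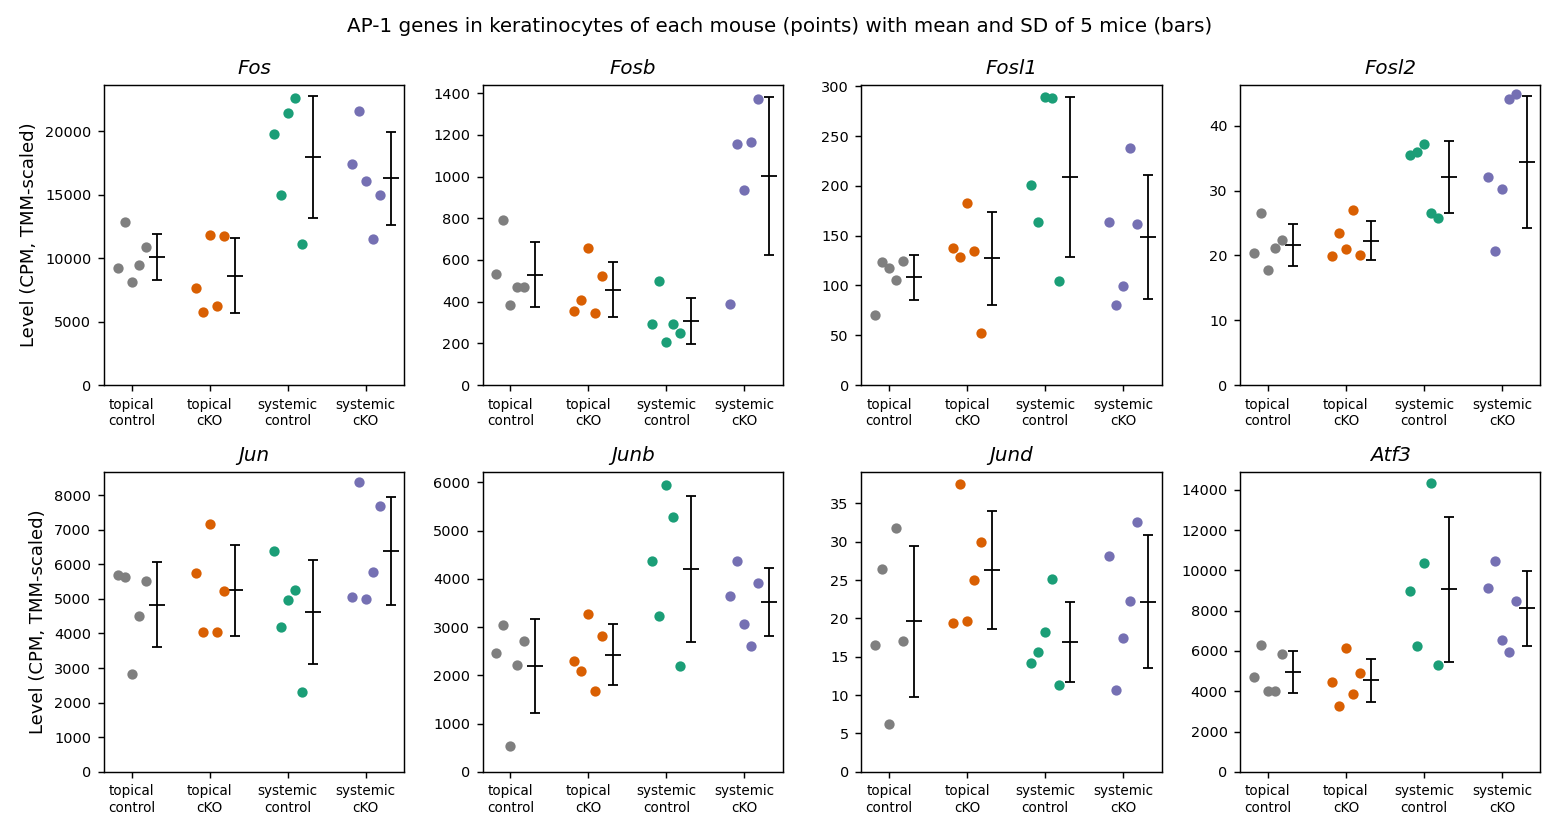
Level of each gene (CPM with TMM factors, each vertical axis from 0) in every mouse, by group, with the mean and SD of 5 mice beside the points. Fosb in 4 of the 5 systemic cKO mice (936 to 1370.3 CPM) lies above all other libraries, and systemic cKO 2 lies at 387 CPM among the systemic controls.

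After injection, Fosb was the member that differed by genotype. Fosb, a close relative of Fos that also gives a stable truncated protein by splicing, stood at 294, 497, 205, 291 and 247 CPM in systemic controls 1, 3, 4, 5 and 6. In systemic cKO 2, 4, 5, 6 and 7 it stood at 387, 1157, 936, 1166 and 1370.3 CPM. Thus 4 cKO libraries were above every control library, and systemic cKO 2 fell inside the control range. The group means were 307 ± 112 CPM without and 1003 ± 377 CPM with Cre (SD, n = 5 each), a difference of 3.27-fold, or 1.71 on the log2 scale (95% interval 1.06 to 2.36, edgeR adjusted p 0.00521, SE 0.31). It was the 1 member of 8 called here, where 1.89% of all genes were called (1.36% higher, 0.531% lower). No member's groups were free of overlap, as those of 1.94% of all genes were.

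Within the systemic libraries, Fosb ran with the library split named above as well as with genotype. Systemic cKO 2, the cKO library with over 50 satellite-like CPM like the systemic controls, also shared their Fosb level, and without it the log2 fold change was 1.92 (adjusted p 1.52e-04). With the split at 50 satellite-like CPM in the model the estimate was 0.33. Systemic cKO 2 is the only systemic cKO library over 50, so that value compares it alone with the 5 systemic controls. That fit cannot separate the split from genotype. In a fit of the 10 systemic libraries alone the estimate was 1.70 (adjusted p 0.0611), and each of the 10 fits that left out 1 library kept the call. Summed leukocyte markers (8 genes, of which 2 passed the filter and none was at 0 in every library) ran from 15.3 to 31.4 CPM in systemic cKO and from 6.67 to 27.1 CPM in systemic control, and melanocyte markers (5 genes, 3 past the filter) from 6.91 to 9.84 and from 7.25 to 35.0 CPM; their part in the result was not tested. In bulk libraries, fewer cells of a kind and less RNA per cell cannot be told apart.

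Set against Fos in the same library, which needs no scaling between libraries, Fosb had 1.48, 3.31, 0.957, 1.29 and 2.23 reads per 100 Fos reads in systemic controls 1, 3, 4, 5 and 6. Systemic cKO 2 had 2.22, and systemic cKO 4, 5, 6 and 7 had 5.36, 5.83, 10.1 and 9.15. The ratio was 4.32 to 6.16 in topical control and 4.44 to 7.05 in topical cKO. The 6 libraries with over 50 satellite-like CPM therefore lay at 0.957 to 3.31 and the other 14 at 4.32 to 10.1, with no overlap. This ratio was chosen after the values were seen and is given as a description.

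**Figure D3:**
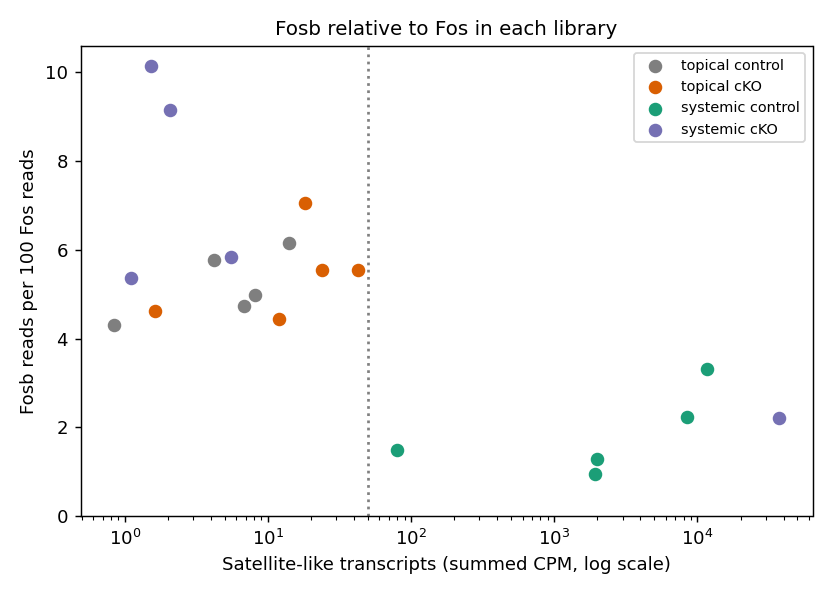
Fosb reads per 100 Fos reads (vertical axis) against the summed level of satellite-like transcripts (horizontal axis, CPM, log scale) in each library, coloured by group; the dotted line is at 50 CPM. The 6 libraries right of the line (5 systemic control, 1 systemic cKO) are at or under 3.31, and the 14 left of it are at 4.32 or more.

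The other members gave no call between systemic cKO and control. Jun was at 6377, 4193, 4962, 5255 and 2299 CPM in systemic controls 1, 3, 4, 5 and 6 and at 5060, 8373, 5009.6, 5776 and 7698 CPM in systemic cKO 2, 4, 5, 6 and 7, so the groups overlapped (log2 fold change 0.47, adjusted p 0.464, SE 0.28). Fosl1, whose counts Ccdc85b may share, had an estimate of -0.49 (adjusted p 0.506, SE 0.32). Fos, Atf3, Junb, Fosl2 and Jund lay between -0.26 (Junb) and 0.39 (Jund), each with an adjusted p of at least 0.643. The median over the 8 members was -0.022, and -0.0045 over all genes tested.

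The genotype effects of the routes were then compared with each other in an interaction term. It called no member, against 0.25% of all genes (0.185% higher, 0.0644% lower), and Fosb was the member with an unadjusted p under 0.05 (2.08e-04). Its genotype effect was 1.92 higher on the log2 scale after injection (SE 0.43, edgeR adjusted p 0.0517), just short of the threshold. The DESeq2 Wald test gave an adjusted p of 0.00162 and limma voom 0.029, so that these tools each called 1 member. With the satellite-like covariate the estimate was 0.55, a value that rests on systemic cKO 2 alone among the systemic cKO libraries. The 7 other members had interaction estimates from -0.73 (Fosl1) to 0.35 (Jun).

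**Figure D4:**
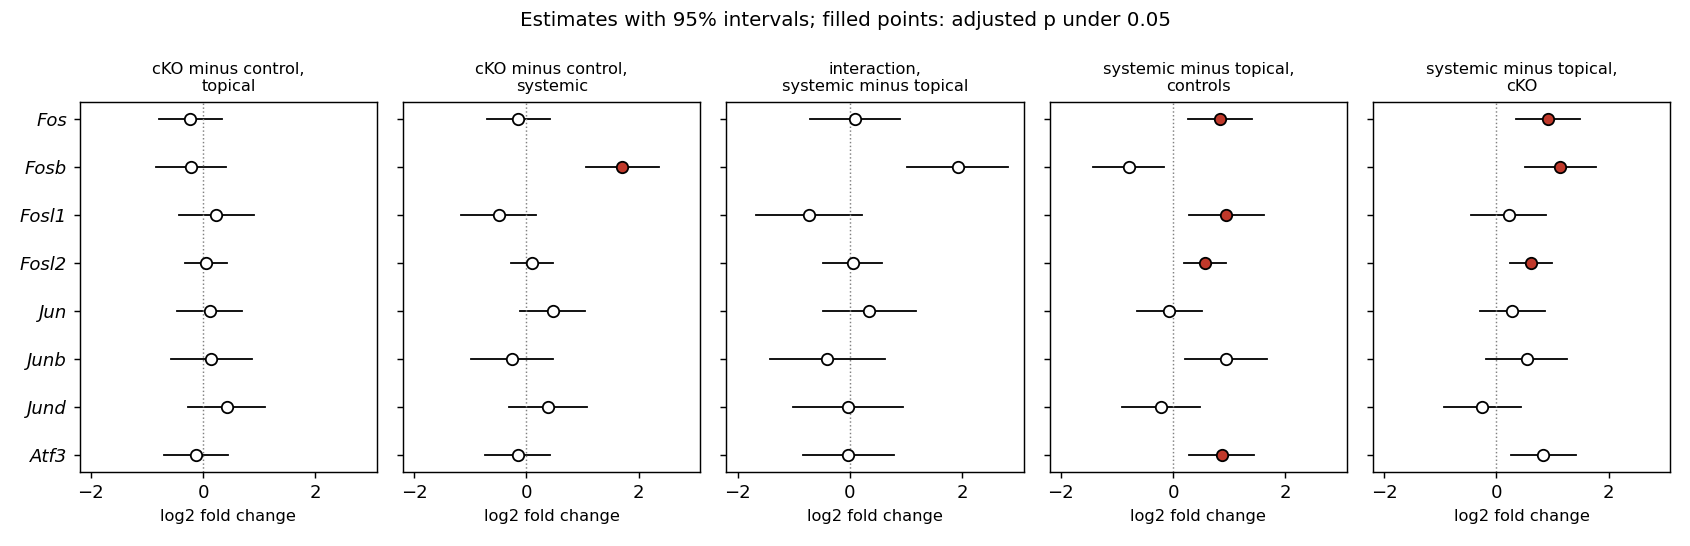
Log2 fold change (horizontal axes) of each gene in the 5 comparisons with its 95% interval (lines); filled points have an adjusted p under 0.05. Fosb is the filled point in the systemic genotype comparison (1.71), and its estimates for the route lie on opposite sides of 0 in controls (-0.79) and cKO (1.14).

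The route of tamoxifen was compared within each genotype. Topical mice were also shaved and received another vehicle, so these differences cannot be assigned to tamoxifen exposure. The route comparisons and the genotype comparisons use the same 4 groups, and each pair of comparisons that meets in a group shares its libraries. In controls, Fos, Atf3, Fosl1 and Fosl2 were called and higher after injection, 4 of 8 members, where 10.2% of all genes were called higher and 8.16% lower (18.3% in all). In cKO, Fos, Fosb and Fosl2 were called and higher, 3 of 8, where 5.19% of all genes were called higher and 4.02% lower (9.22% in all). No member was called lower in either genotype. The median log2 fold change of the 8 members was 0.70 in controls and 0.58 in cKO, and over all genes tested it was 0.00080 and -0.013. The range of the 5 mice overlapped between routes for all 8 members in both genotypes, whereas 13.8% of genes in controls and 7.39% in cKO had no overlap.

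Fos rose from 10110.4 ± 1834 to 18002 ± 4815 CPM in controls (log2 fold change 0.83, SE 0.27, adjusted p 0.0388). Systemic controls 1, 3, 4, 5 and 6 were at 19803, 15017, 21467, 22604 and 11118 CPM, and 4 of these exceeded the highest topical control. In cKO Fos rose from 8639 ± 2957 to 16318 ± 3674 CPM (0.92, SE 0.28, adjusted p 0.0386), with 17441, 21589, 16068, 11511 and 14981 CPM in systemic cKO 2, 4, 5, 6 and 7. Of these, 4 exceeded the highest topical cKO library, and systemic cKO 6 did not. The values after ± are SDs (n = 5).

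Atf3, whose product also represses inflammatory genes, rose in controls. It was at 4712, 6275, 4033, 4003 and 5862 CPM in topical controls 1, 3, 5, 6 and 7 and at 8974, 6271, 10370.5, 14353 and 5305 CPM in systemic controls 1, 3, 4, 5 and 6 (log2 fold change 0.86, SE 0.28, adjusted p 0.0347). In cKO the values were 4483, 3289, 6139, 3878 and 4916 CPM after topical treatment (cKO 2, 3, 4, 5 and 7) and 9151, 10458, 6567, 5926 and 8469.8 CPM after injection (cKO 2, 4, 5, 6 and 7). That estimate was 0.84 (SE 0.28, adjusted p 0.0621), of the same size as in controls but short of the threshold. In cKO, 4 of the 5 injected mice were above every topical mouse, and in controls 3 were.

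Fosl2 encodes Fra-2, a Fos protein without the strong activation domain of Fos. It rose after injection by 0.57 on the log2 scale in controls and by 0.62 in cKO (SE 0.18 and adjusted p 0.0315 in both). Levels were 20.4, 26.5, 17.7, 21.1 and 22.3 CPM in topical controls 1, 3, 5, 6 and 7 and 35.5, 36.0, 37.1, 26.5 and 25.7 CPM in systemic controls 1, 3, 4, 5 and 6. In cKO they were 19.9 to 27.0 CPM (median 20.9) after topical treatment and 20.6 to 44.9 CPM (median 32.1) after injection. Fosl1, which encodes Fra-1, rose in controls from 108 ± 22.4 to 209 ± 80.4 CPM (SD, n = 5 each; 0.95, SE 0.32, adjusted p 0.0450), and Ccdc85b was called beside it (0.88, SE 0.27, adjusted p 0.0300). Topical controls 1, 3, 5, 6 and 7 had 70.5, 124, 117, 106 and 124 CPM of Fosl1, and systemic controls 1, 3, 4, 5 and 6 had 200.5, 164, 289, 288 and 104 CPM. All systemic controls but the last were above every topical control. In cKO the estimate for Fosl1 was 0.22 (SE 0.32, adjusted p 0.733), with 52.7 to 183 CPM after topical treatment and 80.5 to 238 CPM after injection.

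The route estimates of Fosb lay on opposite sides of 0 in controls and cKO. In cKO it rose from 456 ± 132 to 1003 ± 377 CPM after injection (1.14, SE 0.31, adjusted p 0.0214), with 354, 406, 655, 344 and 522 CPM in topical cKO 2, 3, 4, 5 and 7. Without systemic cKO 2, the cKO library with over 50 satellite-like CPM, the cKO estimate was 1.34 (adjusted p 0.00305). The call was lost without systemic cKO 7 (adjusted p 0.0595), topical cKO 2 (0.0606) or topical cKO 5 (0.0645). It was also lost in a fit of the libraries compared alone (adjusted p 0.0525). In controls Fosb was at 531, 793, 383, 471 and 470.4 CPM after topical treatment and its estimate was -0.79 (SE 0.31, adjusted p 0.0749). It did not pass the threshold there, but the DESeq2 Wald test (adjusted p 0.0374) and limma voom (0.0204) called Fosb lower. With the satellite-like covariate the control estimate was 0.79. That value rests on systemic cKO 2, because every systemic control and no topical control is over 50 satellite-like CPM. The difference between the main estimates, 1.14 in cKO and -0.79 in controls, is the interaction given above.

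Junb, whose product restrains Jun, was at 2463, 3037, 538, 2211 and 2719 CPM in topical controls 1, 3, 5, 6 and 7 and at 4361, 3225, 5949, 5273 and 2194 CPM in systemic controls 1, 3, 4, 5 and 6 (0.94, SE 0.35, adjusted p 0.0669). The low value of topical control 5 recurred in Jund, at 6.28 CPM against 16.6 to 31.8 CPM in the 4 other topical controls. Both genes are rich in G and C: 62.6% and 67.2% of the bases in their longest transcripts, at percentiles 98.5 and 99.7 of protein-coding genes. In topical control 5 the 475 tested genes with at least 60% GC had a median log2 deviation of -0.71 from their mean over libraries, and the medians of the 19 other libraries lay between -0.18 and 0.20. Without topical control 5 the Junb estimate was 0.69 (adjusted p 0.104), and with offsets for GC content and length it was 1.02 (adjusted p 0.0115). The part of GC content in the result was otherwise not tested. In cKO the Junb estimate was 0.54 (SE 0.35, adjusted p 0.379). Jun ranged from 2299 CPM (systemic control 6) to 8373 CPM (systemic cKO 4) and Jund from 6.28 to 37.6 CPM over the 20 libraries. Jun and Jund were not called in either genotype, at -0.066 and -0.22 in controls and 0.28 and -0.25 in cKO.

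The route calls lay close to the threshold. Without topical control 1, 5 or 6, or without systemic control 4, no member was called in controls. Without systemic control 1 or 5 or topical control 7 there was 1, without systemic control 3 there were 2, without topical control 3 there were 3 and without systemic control 6 there were 5. In cKO none was called without systemic cKO 7 or topical cKO 2, 1 without topical cKO 5, 2 without systemic cKO 2, 4, 5 or 6 or topical cKO 3 or 7, and 3 without topical cKO 4. The DESeq2 Wald test called 6 members in controls and 4 in cKO, limma voom 6 and 2, and a fit of every gene with a count 0 and 2. With the satellite-like split in the model 2 were called in cKO. For controls that fit cannot test the route, since every systemic control and no topical control is over 50 satellite-like CPM. Leukocyte markers summed to 6.97 to 13.2 CPM in topical control, 6.67 to 27.1 CPM in systemic control, 5.93 to 12.1 CPM in topical cKO and 15.3 to 31.4 CPM in systemic cKO. Median sums of fibroblast markers were 4.16, 1.91, 6.54 and 3.63 CPM in these groups in the same order. Those of endothelium were 3.78, 1.42, 3.75 and 1.25 CPM, and those of melanocytes 7.21, 7.76, 7.35 and 8.64 CPM. The part of these cell types in the route differences was not tested.

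Between mice of the same group, Atf3, Jun and Junb varied with Fos. After each group's mean was subtracted, log2 CPM of Fos correlated over the 20 libraries with Atf3 (Pearson r 0.88, Spearman's rho 0.88), Jun (0.72, 0.70) and Junb (0.70, 0.80). Permuting libraries within groups gave adjusted p-values for r of 7e-05, 0.00275 and 7e-05 over the 7 relations tested, and for rho of 7e-05, 0.00446 and 1.4e-04; for Atf3 the unadjusted p, 1e-05, is the smallest the permutations can give. The correlations of Fos with Fosb (0.19, 0.24), Jund (0.10, 0.13), Fosl1 (0.010, 0.15) and Fosl2 (-0.23, -0.18) had permutation p-values over 0.3. Without topical cKO 3 and systemic control 5, the libraries farthest from the median of Fos, r was 0.89 with Atf3, 0.70 with Jun and 0.72 with Junb, and within the 14 libraries under 50 satellite-like CPM it was 0.88, 0.67 and 0.62. All genes of a library share its scaling factor: with library totals alone, r was 0.57 with Atf3, 0.31 with Junb and 0.068 with Jun. Among the 14 libraries r with Fos was 0.57 for Fosb, -0.41 for Fosl1, -0.42 for Fosl2 and -0.084 for Jund, given as a description.

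The genes most like each member across the 20 libraries were also sought. With Atf3 these were Btg2 (r = 0.95), an early growth-arrest gene, Arl4a (0.94) and Nr4a1 (0.92), an immediate early nuclear receptor. With Fos they were Sun1 (0.94), Krt15 (0.94), a basal keratin, and Angel1 (0.93), and with Junb Inava (0.89), the immediate early gene Ier2 (0.89) and Prn (0.89). Fosb was most like Sh3rf2 (0.87), Sp6 (0.86) and Hdac5 (0.84), Jun like Ddr1 (0.85), Dnm2 (0.85) and Zbtb7a (0.83), Fosl2 like Zfp516 (0.86), Etv3 (0.84) and BC024978 (0.83), and Jund like Zfp703 (0.82), Nfkb2 (0.81) and Ogfr (0.78). After Ccdc85b, Fosl1 was most like Plet1 (0.88) and Mafk (0.87). These are the highest of 7820 coefficients for each gene over pooled groups that share library scaling, and they are given as a description.

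Immediate early genes outside the family were more often called higher than lower after injection. Of 17 such genes, all past the filter, 4 were called higher and 1 lower after injection in controls, and 5 higher in cKO. Of all genes, 10.2% were called higher and 8.16% lower in controls, and 5.19% and 4.02% in cKO. The median log2 fold changes of the 17 were 0.40 and 0.46, against 0.00080 and -0.013 over all genes. Egr1, a zinc finger factor induced through the same signals as Fos, rose by 1.26 in controls (adjusted p 0.0214) and 1.55 in cKO (adjusted p 0.00982; SE 0.37 in both). Cyr61, a matricellular gene driven by serum response factor and YAP, rose by 1.74 (adjusted p 0.00362) and 1.18 (adjusted p 0.0494), and Btg2 by 1.17 (adjusted p 0.0104) and 0.97 (adjusted p 0.0463). Egr3 rose in controls (0.87), and Egr2 (1.37) and Ier2 (1.24) rose in cKO. With the mean of these 17 genes as a covariate, no AP-1 member was called for route in either genotype: Fos was at 0.52 and 0.56, and Atf3 at 0.42 and 0.37. The median of these genes itself rose after injection, so the covariate takes up part of any route difference. That fit therefore cannot tell a route difference of the members from one shared with these genes.

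Csrnp1, an immediate early gene for a nuclear protein, was the gene of that list called between systemic cKO and control. It was at 16.8, 18.8, 23.4, 20.4 and 10.7 CPM in systemic controls 1, 3, 4, 5 and 6 and at 20.9 CPM in systemic cKO 2. Systemic cKO 4, 5, 6 and 7 had 132, 135, 119.8 and 148 CPM, and the topical libraries 71.2 to 179 CPM. It differed by 2.63 on the log2 scale between systemic cKO and control (SE 0.39, adjusted p 0.00121) and by -2.66 between routes in controls (SE 0.39, adjusted p 1.65e-04), and it was called in the interaction (2.62, SE 0.53, adjusted p 0.0334). The 6 libraries with over 50 satellite-like CPM did not overlap the other 14 in Csrnp1. This is a description, since the share of all genes that part at that cut was not counted. With that split in the model, the systemic genotype comparison and the interaction rest on systemic cKO 2 alone among the systemic cKO libraries. Those fits therefore cannot test Csrnp1 or the lists.

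Upstream of AP-1, 24 of 25 genes of the MAP kinase, ternary complex factor and serum response factor list passed the filter. In controls, Map2k4, the kinase that activates JNK, rose after injection (0.45, SE 0.12, adjusted p 0.0133), as it did in cKO (0.56, SE 0.12, adjusted p 0.00442). Srf, the serum response factor that binds the Fos promoter, rose in controls from 3.92 ± 1.43 to 11.5 ± 4.63 CPM (SD, n = 5 each; 1.56, SE 0.47, adjusted p 0.0254). Elk1, a partner of SRF, was lower in systemic controls (-0.92, SE 0.17, adjusted p 0.00129) and higher in systemic cKO than in systemic control (0.74, SE 0.17, adjusted p 0.0307); systemic cKO 2, at 3.96 CPM, was just above the highest control, at 3.955 CPM. No gene of this list was called in the topical genotype comparison or the interaction. The 3 of 24 called for route in controls and 1 of 24 in cKO are no larger a share than the 18.3% and 9.22% of all genes, and the list's medians were 0.11 and 0.017.

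Among 14 feedback genes, which encode MAP kinase phosphatases and mRNA-decay factors, Dusp5 (1.12), Dusp8 (0.72) and Zfp36l2 (1.05) rose after injection in controls and Dusp4 fell in cKO (-1.60). These 3 of 14 and 1 of 14 stand beside 18.3% and 9.22% of all genes called there (10.2% higher in controls, 4.02% lower in cKO). The list's medians were 0.70 and 0.099. The genotype comparisons called none of them. Their medians were 0.24 in the topical one (11 positive, 3 negative), -0.37 in the systemic one (3 positive, 11 negative) and -0.49 in the interaction (2 positive, 12 negative). Over all genes these medians were 0.020, -0.0045 and -0.028. Dusp1, which switches off p38 and JNK and is itself a glucocorticoid-induced gene, had estimates of 0.060 (SE 0.29) in the topical and -0.28 (SE 0.29) in the systemic genotype comparison. Of 12 other basic leucine zipper genes, 9 passed the filter, and Atf4 (-0.60, adjusted p 0.00922) and Maf (-0.65, adjusted p 0.0320) fell after injection in controls, where 18.3% of all genes were called; the other 4 comparisons called none of the 9.

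Of 23 genes known as AP-1 targets in keratinocytes, 18 passed the filter. In controls, 3 were called lower and 0 higher after injection, a share near that of all genes (18.3%; 8.16% lower). In cKO, 5 were called lower and 2 higher, where 4.02% of all genes were lower and 5.19% higher. Over the 18, the median log2 fold change for route was -0.27 in controls and -0.81 in cKO, against 0.00080 and -0.013 over all genes. Called lower after injection were Mmp3 (-1.48), Mmp13 (-2.70) and Plau (-1.41) in controls, and Sprr1b (-3.08), Krt6a (-3.80), Mmp13 (-2.63), Cd44 (-0.98) and Plau (-0.70) in cKO. Mmp13 and Mmp3 encode matrix metalloproteinases, Plau the urokinase protease, Cd44 a hyaluronan receptor, Sprr1b a cornified envelope protein and Krt6a a keratin of injured epidermis. Called higher in cKO were Ivl (1.002), the cornified envelope gene involucrin, and Areg (1.54), an EGF receptor ligand. Areg was the gene of the list called by genotype: it was at 6.07 to 16.0 CPM in systemic cKO and 2.74 to 4.43 CPM in systemic control (1.66, SE 0.38, adjusted p 0.0236). With the satellite-like split in the model that comparison rests on systemic cKO 2 alone among the cKO libraries, so that fit cannot test Areg. Krt6a ranged from 98.7 to 2146 CPM among the 5 topical cKO mice and from 22.4 to 79.0 CPM among the systemic cKO mice.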

How the data were processed

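Raw counts per gene were deposited by the authors as 1 table, with 1 column per mouse; per the submitters' processing notes, STAR, featureCounts and the build GRCm38 (mm10) were used. Versions, strand setting and the handling of reads that overlap several genes are not given in the sources used here. A single edgeR fit (version 4.0.16, R 4.3.3) held the 20 libraries, with TMM factors, filterByExpr (minimum count 10, minimum total 15), robust quasi-likelihood dispersions and a coefficient for each group; tests are two-sided and intervals are 95%. On simulated counts with 200 genes changed by 1.5 (log2) in systemic cKO, 178 were called in the systemic genotype comparison over 12219 genes, with 12 others. Correlations used log2 CPM (prior count 2) and 100000 permutations. DESeq2 1.42.0 and limma 3.58.1 were alternatives. Exon lengths, GC content and overlaps came from GENCODE M21, in which 25665 of 25719 identifiers were found. The members and lists were chosen with earlier results of these data known. All 8 members were named throughout; list genes were named where called, at most 6 per list and comparison, and Dusp1 and the ratio of Fosb to Fos were chosen after their values were seen. Each member's 3 most correlated genes were sought among 7820 genes averaging 5 CPM or more. Offsets for GC content and length, library totals without TMM factors and totals without the members were added as alternatives after the data were seen.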

Additional observations from a re-analysis of the deposited data

How the results depend on the processing

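Counts of called genes are given for the topical genotype, systemic genotype, interaction, control route and cKO route comparisons, in that order; they were 16, 235, 31, 2277 and 1145, with 0, 1, 0, 4 and 3 AP-1 members. The DESeq2 Wald test called 42, 559, 321, 2775 and 1543 genes with 0, 1, 1, 6 and 4 members, and DESeq2 size factors 16, 237, 29, 2285 and 1135 with 0, 1, 0, 4 and 3. Voom with quality weights called 22, 348, 218, 3475 and 1478 genes with 0, 1, 1, 6 and 2 members. Testing every gene with a count gave 17, 186, 40, 1829 and 889 with 0, 1, 1, 0 and 2, and genes averaging 5 CPM 12, 225, 49, 1921 and 930 with 0, 1, 1, 5 and 4. With percent mitochondrial counts as a covariate the counts were 22, 1320, 364, 3497 and 1709 with 0, 2 (Fosb and Jun), 1, 5 and 4; with sex 16, 303, 49, 2392 and 1257 with 0, 1, 0, 5 and 4; with the immediate early mean 19, 195, 47, 2330 and 1073 with 0, 1, 0, 0 and 0; and with satellite-like CPM over 50 they were 16, 0, 0, 1 and 1055 with 0, 0, 0, 0 and 2. Fits of only the libraries compared (no interaction) gave 23, 35, 2454 and 785 with 0, 0, 2 and 0. Of the alternatives chosen after seeing the data, GC and length offsets gave 20, 357, 94, 2196 and 1315 with 0, 1, 1, 4 and 4, library totals alone 10, 51, 4, 960 and 541 with 0, 1, 0, 3 and 3, and leaving the members out of the totals 16, 237, 31, 2278 and 1145 with 0, 1, 0, 4 and 3. Where a fit has fewer genes or libraries, that is by its construction. With satellite-like CPM over 50, only systemic cKO 2 separates the split from the groups in the systemic genotype, interaction and control route comparisons. The counts and estimates of that fit cannot test those comparisons. Otherwise the cause was not tested.

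With the replicate number as a block the counts were 9, 288, 0, 2183 and 937 genes with 0, 1, 0, 1 and 2 members. The numbers do not pair the mice: same-numbered libraries of different groups deviated from their group means with correlations of -0.31 to 0.34, 6 of 14 were over 0.1, and 4 libraries correlated best with their own number.

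Leaving out 1 library gave 10 to 19 genes (topical genotype), 81 (without systemic cKO 6) to 788 (without systemic cKO 2), 16 to 470 (interaction, without systemic cKO 5 and 2), 1463 (without systemic control 3) to 2524 (control route), and 746 (without topical cKO 5) to 1217 (cKO route), and 0, 1, 0 to 1, 0 to 5 and 0 to 3 members. The interaction called Fosb without systemic cKO 2 or systemic control 1 or 3.

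Estimates that changed sign were all of uncalled members. In the interaction, Atf3 was 0.084 with mitochondrial percent, 0.14 with the block, 0.15 with satellite-like CPM, 0.010 with sex and -0.17 to 0.20 with 1 library left out; Fos was -0.0041 by voom and -0.047 to 0.23; Fosl2 was -0.055 with library totals, -0.018 with the immediate early mean, -0.016 with the block, -0.045 with satellite-like CPM and -0.061 to 0.19; and Jund was 0.049 with GC offsets, 0.19 by voom, 0.31 with satellite-like CPM and -0.27 to 0.19. In the systemic genotype comparison, mitochondrial percent gave 0.062 (Atf3), 0.068 (Fos) and 0.016 (Junb), satellite-like CPM 0.015 (Atf3) and -1.04e-05 (Fosl2), and leaving out 1 library -0.30 to 0.071 (Atf3) and -0.017 to 0.24 (Fosl2). In the topical one, the block gave 0.012 (Fosb) and -0.013 (Junb), GC offsets -0.043 and voom -0.013 (Fosl2), and leaving out 1 library -0.037 to 0.13 (Fosl2), -0.025 to 0.20 (Jun) and -0.10 to 0.29 (Junb). For the control route, satellite-like CPM gave 0.79 (Fosb) and 0.34 (Jun), the block 0.023 (Jund), and leaving out 1 library -0.21 to 0.11 (Jun) and -0.44 to 0.017 (Jund). For the cKO route, the immediate early mean gave -0.29 (Fosl1), -0.16 (Jun) and -0.044 (Junb), and leaving out 1 library -0.014 to 0.39 (Fosl1). The correlations with Fos changed sign with library totals for Fosb (-0.15), Fosl1 (-0.37) and Jund (-0.084), for Fosl1 without the 2 farthest libraries (-0.033), and for Fosl1 (-0.41) and Jund (-0.084) within the 14 libraries under 50 satellite-like CPM.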
